A study of Homo sapiens with 4 samples.

Results

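The comparison described here sets LAPC-4 cells given 10 nM R1881 against LAPC-4 cells given none, across the human microRNAs (miRNAs) that the arrays could detect. LAPC-4 is an established prostate cancer cell line with an androgen receptor, and R1881 is a synthetic androgen that binds it. A miRNA belonged to the comparison if its perfectly matched human probe was brighter than 95% of the array's 2-mismatch probes, which carry 2 wrong bases and served as the measure of non-specific signal, on the 10 nM array, the untreated array or both. This gave 136 of the 455 human miRNA probes. Groups were the 10 nM R1881 cells and the untreated cells, 1 array each, and the same series holds 1 array each at 0.1 and 1 nM. Every group, the untreated one included, spent 24 hours without androgen in medium with 10% charcoal-stripped serum. The time in R1881 is not stated, nor is whether the flasks were separate experiments. From each group 10 µg of total RNA was labelled with the dye Cy3 and hybridized to a custom array. With 1 array a group, no difference below has a replicate check or a test, and each is a difference between these 2 arrays.

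MiRNAs are short RNAs, cut from longer transcripts, that guide Argonaute proteins to messenger RNAs and lower their output. Most of the choice of targets lies in the seed, bases 2 to 8 from the 5′ end, so miRNAs with 1 seed form a family with overlapping targets. Many miRNAs also lie in clusters that are transcribed as a single precursor. The androgen receptor is a transcription factor that drives growth and secretory genes in prostate epithelium, and several miRNA genes are known among its targets in prostate cancer cells, miR-21 among them.

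The mature sequences of miRNAs at both ends of the comparison are shown, with the seed in capitals, because the families below are defined by it. The 17 sequences hold 15 seeds. They are RefSeq sequences (GRCh38.p14). Array names carry no arm and the deposited files hold no probe sequences, so the arm was taken from the usual meaning of each name. Those of the 10 highest miRNAs at 10 nM relative to the median detected miRNA come first, without miR-594 and miR-575, which also belong there.
miR-568: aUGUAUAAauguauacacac
miR-16: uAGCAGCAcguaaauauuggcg
miR-21: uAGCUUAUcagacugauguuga
miR-107: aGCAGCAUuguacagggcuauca
miR-29b: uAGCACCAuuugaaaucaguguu
miR-193a: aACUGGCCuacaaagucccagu
miR-148a: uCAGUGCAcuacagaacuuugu
miR-106a: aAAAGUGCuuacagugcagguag
The next 9 are from the 10 lowest, which also include miR-30d, and among them the seeds ACCCGUA and UGACCUA each occur 2 times.
miR-125b: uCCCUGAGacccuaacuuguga
miR-99a: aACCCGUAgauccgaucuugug
miR-30a-5p: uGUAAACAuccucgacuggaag
miR-100: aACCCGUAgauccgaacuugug
miR-192: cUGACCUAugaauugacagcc
miR-638: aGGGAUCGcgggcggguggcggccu
let-7c: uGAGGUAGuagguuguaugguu
miR-215: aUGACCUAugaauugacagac
miR-31: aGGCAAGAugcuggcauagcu
Counted from 1 at the 5′ end, miR-99a and miR-100 differ by the single substitution U16A, and miR-192 and miR-215 by C1A and C20A. Signal from either miRNA of such a pair on the other's probe was not tested.

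Several of these genes lie inside other genes. On GRCh38.p14, the mature miR-21 is at chr17:59841273-59841294 on the plus strand inside VMP1, and miR-107 is at chr10:89592756-89592778 on the minus strand inside PANK1, a pantothenate kinase gene. MiR-16 has copies at chr13:50049027-50049048 (minus strand) inside the long noncoding RNA gene DLEU2, and at chr3:160404754-160404775 (plus strand) inside SMC4. MiR-29b has copies at chr1:207802450-207802472 and chr7:130877467-130877489, both on the minus strand. MiR-106a is at chrX:134170244-134170266 (minus strand) inside its host MIR106AHG, miR-148a at chr7:25949922-25949943 (minus strand), and miR-193a at chr17:31560050-31560071 (plus strand). Among the low miRNAs, miR-99a at chr21:16539101-16539122, let-7c at chr21:16539838-16539859 and a copy of miR-125b at chr21:16590253-16590274 all lie on the plus strand inside the noncoding host MIR99AHG. The other copy of miR-125b, at chr11:122099809-122099830, and miR-100, at chr11:122152275-122152296, lie on the minus strand inside a second noncoding host, MIR100HG. A probe reads the sum of all copies, so the copies of miR-16, miR-29b and miR-125b cannot be told apart here.

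The whole array did not shift one way. The median of all probes was 83 at 10 nM and 90 in untreated cells, in the arrays' linear fluorescence units, and the median 2-mismatch probe read 76 at 10 nM and 84.5 untreated. The 136 detected miRNAs went the other way, with a median of 237.375 at 10 nM and 198 untreated. Of them, 116 were brighter at 10 nM and 20 in untreated cells. The median log2 ratio of 10 nM over untreated was 0.32. All ratios below are therefore centred log2 ratios, with this median set to 0, unless called plain. They tell which miRNAs stood above or below the typical detected miRNA, and not whether an amount per cell differed. The limit of detection was 143.5 at 10 nM and 117.625 untreated, so 117 miRNAs were above it at 10 nM and 129 in untreated cells. On both arrays 110 were above it, 7 at 10 nM alone and 19 in untreated cells alone. Just inside the limit were miR-136, with 130 at 10 nM and 118 untreated, and miR-19a, with 145 at 10 nM and 119 untreated, and just outside was miR-18b, with 136 at 10 nM and 117 untreated.

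Most of the epithelial marker miRNAs were detected and few of other cell types. Of 6 miRNAs listed as prostate luminal or epithelial markers, 5 were detected (miR-141, miR-200b, miR-200c, miR-148a and miR-375) and miR-200a was not. MiR-375 was above the limit in untreated cells alone, at 133.5 at 10 nM and 140.75 untreated. None of 2 basal, 6 blood, 1 liver and 7 embryonic stem cell markers was above the limit. Of 5 fibroblast and smooth muscle markers only miR-214 was detected, with 283.5 at 10 nM and 169 untreated (centred 0.43), while miR-143, miR-145, miR-199a and miR-199b were below the limit. The summed intensity of those 5 probes was 605.75 at 10 nM and 505.75 untreated. MiR-206, of 4 muscle markers, and miR-128a, of 5 neural ones, were also above the limit. In such whole-culture RNA, fewer cells of a type and less RNA per cell cannot be told apart.

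Differences between the 10 nM and untreated arrays were small. Centred ratios ran between -0.78 and 0.83 with an SD of 0.32 over the 136 miRNAs, and the middle 50% lay between -0.25 and 0.23. At least 1.5-fold above the median miRNA were 4 miRNAs, 2.94% of the 136, namely miR-594, miR-568, miR-16 and miR-211. At least 1.5-fold below were 4 others, again 2.94%: miR-125b, miR-99a, miR-663 and miR-608. None reached 2-fold in either direction. A smaller step, a centred log2 ratio of at least 0.32193 from 0 and called moderate here, was passed by 24 higher (17.6%) and 19 lower miRNAs (14%), with miR-15a (0.32189) and miR-215 (-0.3209) just short of it. The split depends on the centre: 4 higher and 4 lower became 30 and 0 with plain ratios, 42 and 0 when the median of all probes was set to 0, and 2 and 11 when the median of the brightest 25% of the miRNAs was. Of the 110 miRNAs seen on both arrays, 3 were at least 1.5-fold higher (2.73%) and 2 at least 1.5-fold lower (1.82%), and 21 were moderately higher (19.1%) and 8 moderately lower (7.27%).

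**Figure D1:**
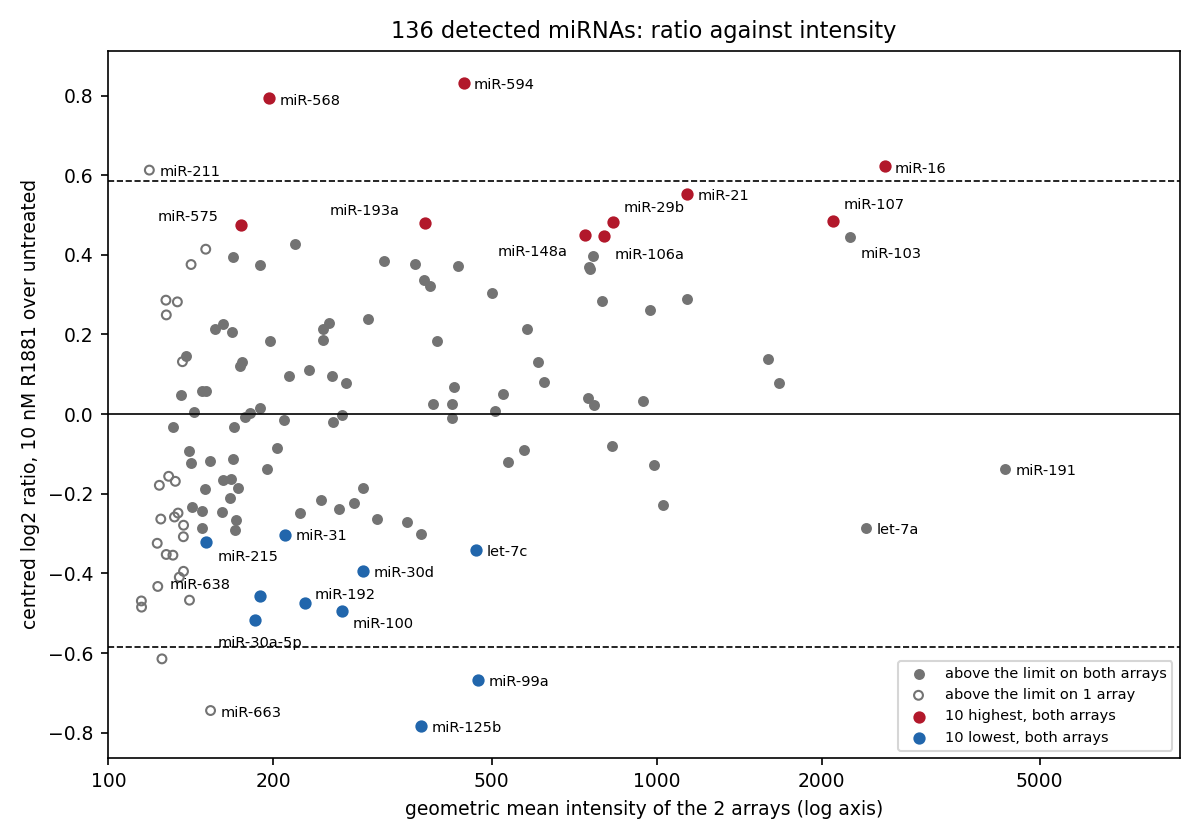
Each point is 1 of the 136 detected miRNAs, with the geometric mean of its 10 nM and untreated intensities on the x axis (log scale, fluorescence units) and its centred log2 ratio, 10 nM over untreated, on the y axis. Dashed lines mark 1.5-fold either way; open circles are miRNAs above the limit on 1 array only. Ratios lie between -0.78 for miR-125b and 0.83 for miR-594, and the dim miRNAs lie more often under 0 than the bright ones. This follows in part from the filter, since the open circles are all dim, 7 above 0 and 19 below.

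Among the miRNAs seen on both arrays, the probe named miR-594 had the highest ratio. This name is the 1 of the 136 for which RefSeq matched no miRNA gene, and it has no matched mature sequence either. It read 662 at 10 nM and 298.25 in untreated cells, with 456 at 0.1 nM and 519.75 at 1 nM, a centred ratio of 0.83 (1.78-fold). Its 2-mismatch probe read 117 at 10 nM and 119.5 untreated. MiR-568, encoded inside the span of ZBTB20, came next with 288.5 at 10 nM and 133.5 untreated (0.79). Its 2-mismatch probe was brighter than the matched one, at 420 at 10 nM and 288 untreated, so these arrays do not tell how much of the miR-568 value is specific. MiR-575 read 230 at 10 nM and 132.75 untreated (0.47), just above the limit in untreated cells.

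MiR-16 was the third of the miRNAs seen on both arrays that were at least 1.5-fold higher. This member of the miR-15 and miR-16 family, which represses cyclins and BCL2, read 3609.5 at 10 nM and 1880.25 untreated, with 2666.75 at 0.1 nM and 2853.5 at 1 nM. Its centred ratio was 0.62, or 1.54-fold, and its plain fold 1.92. It stayed above the median miRNA under every scaling tried, but by 0.27 with cyclic loess, which fits the trend of ratio with intensity and removes it.

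MiR-21, which represses the tumour suppressor PDCD4 and whose gene is bound by the androgen receptor in prostate cancer cells, read 1539.75 at 10 nM and 841.25 untreated. At 0.1 and 1 nM it read 1054.5 and 1291, so all 3 treated arrays were brighter than the untreated one. The centred ratio was 0.55 (1.47-fold), under the 1.5-fold line, and 0.31 with cyclic loess. The other detected miRNA with the seed of miR-21, miR-590, was at -0.01.

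MiR-107 and miR-103, which share a seed and lie in introns of pantothenate kinase genes, had nearly equal ratios. MiR-107 read 2773.5 at 10 nM and 1589.25 untreated (0.48), and miR-103 read 2940.25 at 10 nM and 1732.5 untreated (0.44). Their sequences are close, and how far the probes tell them apart was not tested. The median of the pair was 0.46, above 0 under every setting, and its lowest value over the scalings was 0.10.

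MiR-29b, a repressor of collagen genes and DNA methyltransferases, read 1098.5 at 10 nM and 631 untreated (0.48), with 722.5 at 0.1 nM and 840 at 1 nM. MiR-148a, a luminal miRNA that has been reported to respond to androgen, read 964.75 at 10 nM and 566.25 untreated (0.45). MiR-106a, a paralog of miR-17 that acts on cell cycle regulators, read 1047.5 at 10 nM and 616 untreated (0.45). All 3 also had higher values at 0.1 and 1 nM than in untreated cells. MiR-193a differed in this, with 499.5 at 10 nM and 287.25 untreated (0.48) but 268.5 at 0.1 nM, the lowest of its 4 arrays.

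These 10 miRNAs, chosen for a high ratio of these same arrays, were each brightest on the 10 nM array of the 4, as were 98 of all 136, and 9 were dimmest on the untreated array, as were 86 of all 136. Neither count is support for the choice. Their plain folds of 10 nM over untreated ran between 1.70 and 2.22. The median centred ratio of their own 2-mismatch probes was -0.44, as it was for all 136. All 10 were above 0 under each of 7 other scalings, some of which only move the centre. The 8 that the authors' background-subtracted table lists on both arrays were so on that scale too (not miR-568 and miR-575). Counted alike, 42 of all 136 stayed above 0. Because the 10 were chosen for a high ratio, this is no support for the choice either.

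**Figure D2:**
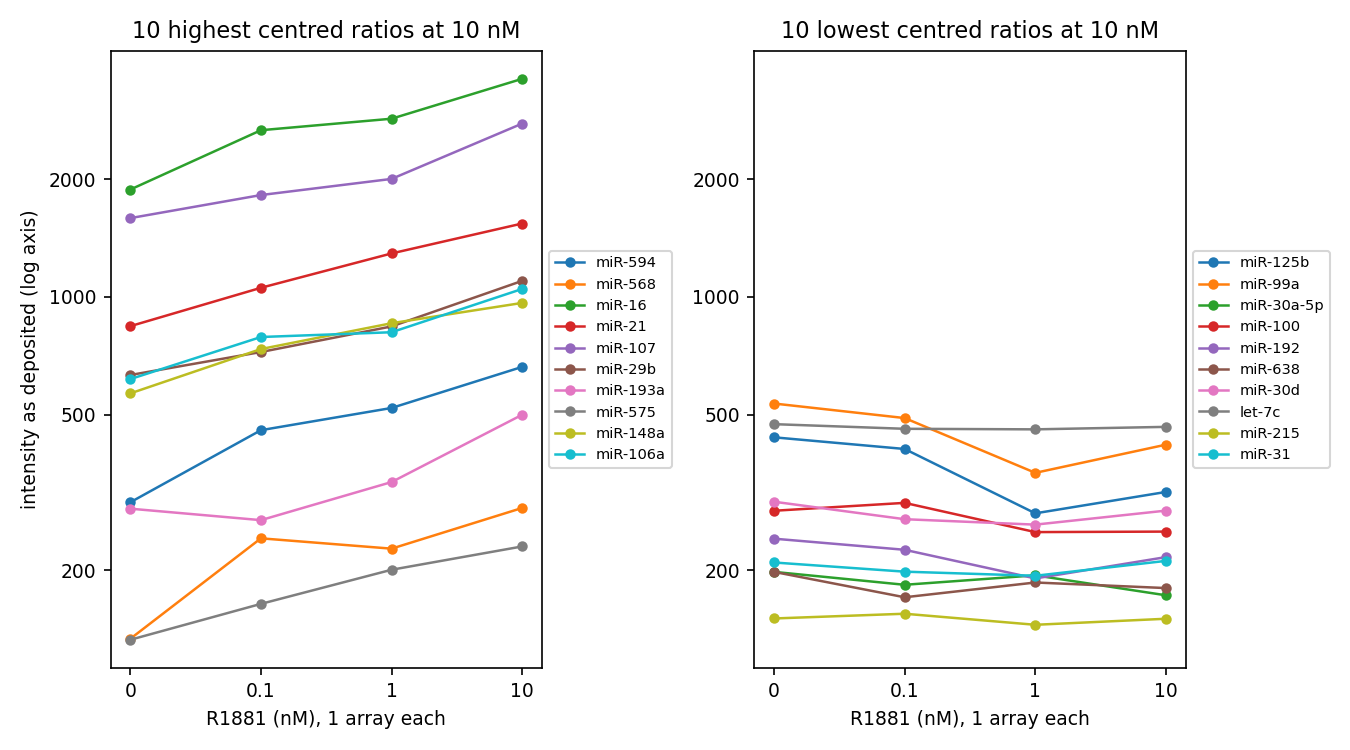
Deposited intensity (log axis, fluorescence units) against R1881 dose in nM, 1 array per point, for the 10 miRNAs with the highest centred ratio at 10 nM (left) and the 10 with the lowest (right), all above the limit on both arrays compared. The left-hand miRNAs are all brightest at 10 nM, and 7 of the right-hand ones are brightest untreated, as are 15 of all 136.

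MiR-125b stood lowest. This homologue of the worm miRNA lin-4, which represses the pro-apoptotic gene BAK1, read 317 at 10 nM and 437.25 in untreated cells, with 408.25 at 0.1 nM and 279.5 at 1 nM. Its centred ratio was -0.78, which is 1.72-fold below the median miRNA, and its plain ratio of 10 nM over untreated was 0.725. The related miR-125a, which has the same seed, read close to the median miRNA at -0.01. With cyclic loess miR-125b was at -0.87, further from 0 than in the main setting.

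MiR-99a, which represses the growth kinase mTOR, read 418.75 at 10 nM and 533.5 untreated, with 489.75 at 0.1 nM and 354.75 at 1 nM, a centred ratio of -0.67 (1.59-fold lower). MiR-100, of the same seed, read 251 at 10 nM and 283.75 untreated (-0.50). MiR-99b, the other detected miRNA of this seed, was at -0.25. All 3 had ratios below that of the median miRNA, and miR-99a and miR-100 were also dimmer at 10 nM as deposited.

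Apart from this group, the low end held miR-30a-5p, miR-192, miR-638, miR-30d, let-7c, miR-215 and miR-31. MiR-30a-5p, whose known targets include the autophagy gene BECN1, read 172.5 at 10 nM and 198 untreated (-0.52). MiR-192 and miR-215, which p53 induces, read 216 at 10 nM and 240.75 untreated (-0.47), and 150.25 at 10 nM and 150.5 untreated (-0.32). The mouse-named probes of both were below the limit on both arrays. That of miR-192 read 73.75 at 10 nM and 75 untreated, and that of miR-215 read 96.75 at 10 nM and 94.75 untreated. MiR-638 read 180 at 10 nM and 198 untreated (-0.46), little above its 2-mismatch probe, which read 163 at 10 nM and 168 untreated.

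For miR-215 and the remaining miR-30d, let-7c and miR-31, the plain folds of 10 nM over untreated lay between 0.949 and 1.01. MiR-30d read 284 at 10 nM and 299.25 untreated (-0.39). Let-7c, a tumour-suppressive miRNA that represses RAS and MYC, read 465 at 10 nM and 472.5 untreated (-0.34). MiR-31, which has been reported to target the androgen receptor messenger RNA, read 211.25 at 10 nM and 209.25 untreated (-0.30). MiR-30d, let-7c, miR-215 and miR-31 lay above 0 when the median of all probes was the centre. The other 6 of the 10 lowest stayed below 0 in all 9 scalings, counting the main one. Of all 136, 13 stayed below 0 in every scaling they had a value for, and the 10 were chosen for a low ratio. Plain folds of the 10 ran between 0.725 and 1.01, whereas the median miRNA was brighter at 10 nM.

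MiRNAs above the limit on 1 array only have a ratio with a bound. MiR-663 read 132.5 at 10 nM, under the limit, and 178 untreated, and was at least 1.53-fold lower on the centred scale and 1.23-fold lower as plain intensity. MiR-361 read 133.5 at 10 nM and 148 untreated, at least 1.27-fold lower centred. MiR-640 read 194 at 10 nM and 116.75 untreated, at least 1.32-fold higher centred and 1.64-fold plain, but its 2-mismatch probe read 155.5 at 10 nM and 117 untreated. MiR-211, past 1.5-fold as a measured ratio with 164 at 10 nM and 86 untreated, was at least 1.11-fold higher centred once bounded, and miR-608, with 113 at 10 nM and 138.75 untreated, at least 1.19-fold lower centred. The mouse-named miR-211 probe on the same arrays was below the limit on both, at 90.5 at 10 nM and 81.75 untreated. Over the 19 miRNAs seen in untreated cells alone, 17 gave no plain bound above 1, so falling under the higher 10 nM limit does not show that they were lower.

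The probes with the highest intensity at 10 nM were those of miR-191, miR-16, miR-103, miR-107 and let-7a. MiR-191, a widely expressed miRNA, read 4605.5 at 10 nM and 4061.75 untreated, a centred ratio of -0.14 that was -0.54 with cyclic loess and above 0 with plain ratios. Let-7a read 2437.5 at 10 nM and 2384 untreated (-0.29, and -0.62 with cyclic loess). Among these 5, then, 3 stood above the median miRNA and miR-191 and let-7a below it, with a sign that depends on the scaling.

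Ratios moved with intensity. In the dimmest 46 of the 136 miRNAs the median centred ratio was -0.18, with 14 above and 32 below 0. In the middle 45 it was -0.01, and in the brightest 45 it was 0.13, with 33 above and 12 below. The dimmest 46 hold all 26 miRNAs seen on 1 array only. The 7 of these seen at 10 nM alone were all above 0. The 19 seen in untreated cells alone were all below 0. The split of the dimmest 46 thus follows in part from the filter. Across the 110 miRNAs seen on both arrays, ratio and mean log2 intensity had a Pearson r of 0.29 and a Spearman rho of 0.31. These are points from the same pair of arrays and the ratio contains the same intensities, so the values describe this pair only. With cyclic loess the 3 medians were -0.10, -0.00 and -0.04. The share of G and C bases in the mature sequence had no such relation with the ratio over the 99 miRNAs with a matched sequence (r of -0.06, rho of 0.00).

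Families were read as lists, by counts and medians beside the 24 of 136 (17.6%) that were moderately higher and the 19 (14%) that were moderately lower among all detected miRNAs. The miR-99, miR-100 and miR-125 group had all 5 of its miRNAs detected and below 0, with a median of -0.50, and 3 of the 5 moderately lower. Its median was below 0 in every setting, between -0.69 and -0.09 over the scalings. The miR-34 and miR-192 group had 3 of 6 detected, all below 0 (median -0.32), but above 0 when centred on all probes. MiR-34a, miR-34b and miR-34c were not above the limit.

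The let-7 family, which represses RAS, MYC and HMGA2, was detected whole, 9 of 9. Its median was -0.22, with 7 below and 2 above 0 and 1 moderately lower. That median lay above 0 with plain ratios, with the centre on all probes and with no detection filter. Let-7b, for example, read 356.5 at 10 nM and 345 untreated (-0.27). The median of the 3 detected miRNAs of the miR-181 family was -0.29. That of the 3 of the miR-200 family, which keeps epithelial identity by repressing ZEB1 and ZEB2, was -0.24. Both medians likewise lay above 0 in those 3 settings. Within the miR-200 family, miR-141 was at -0.30 and miR-200b at -0.24, while miR-200c, with 866 at 10 nM and 683 untreated, was at 0.02.

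On the other side, the miR-17-92 cluster with its paralogs, which promotes proliferation and carries the name oncomiR-1, had 13 of 15 miRNAs detected, 10 above and 3 below 0, with a median of 0.21 and 4 moderately higher. The median stayed above 0 in every setting. MiR-25 read 982 at 10 nM and 598.25 untreated (0.40), and miR-17-5p 957 at 10 nM and 594 untreated (0.37). The 6 detected miRNAs with the miR-17 seed AAAGUGC all lay between 0.21 and 0.45. By contrast, those with the AUUGCAC seed of miR-92 spread between -0.25 for miR-92b and 0.40 for miR-25.

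The miR-29 family had all 3 miRNAs above 0, with a median of 0.34. MiR-29c read 471.5 at 10 nM and 299.5 untreated (0.34), and miR-29a read 295 at 10 nM and 221.25 untreated (0.10). The miR-148 and miR-152 family had 2 of 3 detected, miR-148a and miR-148b, the second with 234.75 at 10 nM and 165.75 untreated (0.18). Medians of both families were above 0 in every setting. The miR-26 and miR-101 group, whose miRNAs repress the methyltransferase EZH2, had a median of 0.14, which was below 0 with cyclic loess and with the authors' background-subtracted values. Its members were miR-101 at 0.21, miR-26a at 0.14 and miR-26b at -0.13.

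Other families had medians near 0, or signs that depend on the setting. In the miR-15 and miR-16 family miR-16 (0.62) and miR-15a, with 481.25 at 10 nM and 308.75 untreated (0.32), were high, while miR-195, with 314.5 at 10 nM and 302.75 untreated, was at -0.26. The family median was 0.02 and changed sign in 5 settings. In the miR-30 family miR-30b was at 0.28 and miR-30d and miR-30a-5p at -0.39 and -0.52. The miR-23, miR-27 and miR-24 clusters (0.04) and the miR-183 cluster (0.03), which regulates zinc transport in prostate cells, had medians near 0 that changed sign in 4 and 5 settings. MiR-221 and miR-222, repressors of the cell cycle inhibitor p27, were at -0.02 and -0.41. MiR-222 was above the limit in untreated cells alone, at 130.5 at 10 nM and 139 untreated.

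The 120 late-numbered miRNAs, named miR-548 to miR-663, many of which rest on thinner evidence as miRNAs, gave 21 detected, 9 of them above the limit on 1 array only. Of the 21, 8 were moderately higher and 5 moderately lower, against 24 and 19 of all 136, but 2 of the 8 were seen at 10 nM alone and 4 of the 5 in untreated cells alone, so these counts partly follow from the filter. Both miR-594, with the highest ratio, and miR-663, with one of the lowest, were among them. Their median was 0.21, below 0 with no detection filter.

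MiRNAs recalled from the literature as androgen-raised in prostate cancer cells were not all high. Of 12 such miRNAs 10 were detected, 6 above and 4 below 0, with a median of 0.06 and 3 moderately higher (miR-21, miR-29b and miR-148a). That median was below 0 when the brightest 25% of the miRNAs were the centre. The 6 recalled as androgen-lowered were all detected and all below 0, with a median of -0.38 and 4 moderately lower (miR-99a, let-7c, miR-100 and miR-222). Their median lay above 0 with the centre on all probes. Both lists were drawn up with earlier results of these data known and are no independent evidence.

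**Figure D3:**
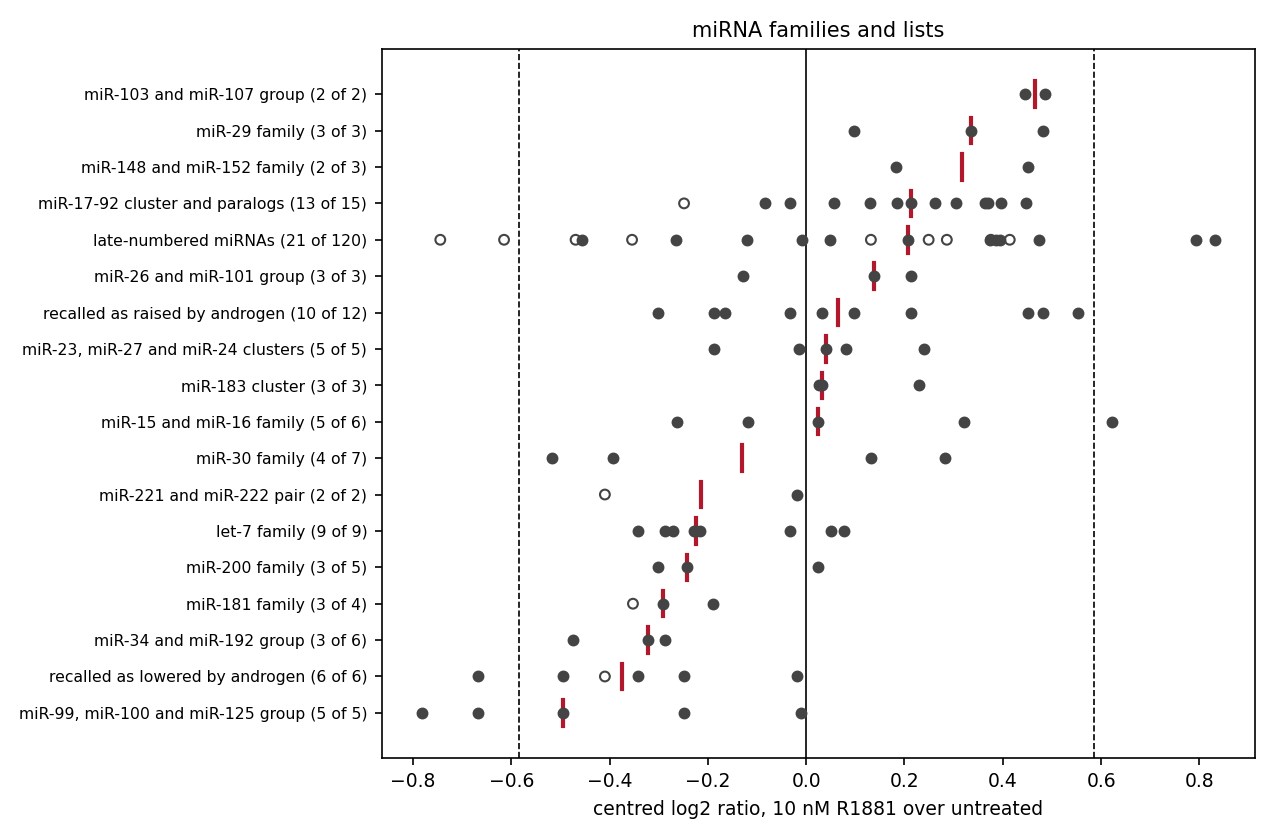
Centred log2 ratio, 10 nM over untreated, of each detected miRNA (points, open where above the limit on 1 array only) in 18 families and lists, with the number detected of the number on the array, the list median as a red bar and 1.5-fold as dashed lines. The miR-103 and miR-107 group has the highest median (0.46) and the miR-99, miR-100 and miR-125 group the lowest (-0.50), and these 2 medians keep their sign in every setting, while that of the let-7 family (-0.22) does not.

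MiRNAs whose genes lie close together could be set side by side, because 61 of the 136 have a gene within 10 kb of another detected one, in 29 clusters. Distance alone defined a cluster, and whether its miRNAs share a precursor was not tested. In 1 cluster miR-324-5p and miR-324-3p come from the single gene MIR324. At the low end were miR-99a with let-7c on chromosome 21 (-0.67 and -0.34) and miR-100 with a copy of let-7a on chromosome 11 (-0.50 and -0.29). The third such cluster, of miR-99b, let-7e and miR-125a on chromosome 19, was nearer 0, at -0.25, -0.22 and -0.01. Copies of miR-125b lie further along the 2 host genes of the first 2 clusters. MiR-192 (-0.47) and miR-215 (-0.32) each lie beside a copy of miR-194 (-0.29).

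At the high end were miR-15a with miR-16 on chromosome 13 (0.32 and 0.62), miR-29c with miR-29b on chromosome 1 (0.34 and 0.48), and miR-93, miR-106b and miR-25 on chromosome 7 (0.21, 0.26 and 0.40). The miR-17-92 cluster on chromosome 13 was spread, with 7 detected miRNAs between -0.08 for miR-92 and 0.37 for miR-17-5p. Clusters could also disagree within themselves. MiR-30d and miR-30b were 0.68 apart, and miR-16 and miR-15b 0.60 apart, where miR-16 also has its other copy.

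Over the pairs of miRNAs seen on both arrays with a matched sequence, the median difference in ratio was 0.29 for the 4725 pairs that share neither seed nor cluster. It was 0.20 for the 44 pairs of 1 cluster with different seeds, 0.18 for the 68 pairs of 1 seed at different loci, and 0.15 for the 14 that share both. Pairs overlap in their miRNAs, the probes of 1 seed also resemble each other in sequence, and no test was made, so these are descriptions.

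**Figure D4:**
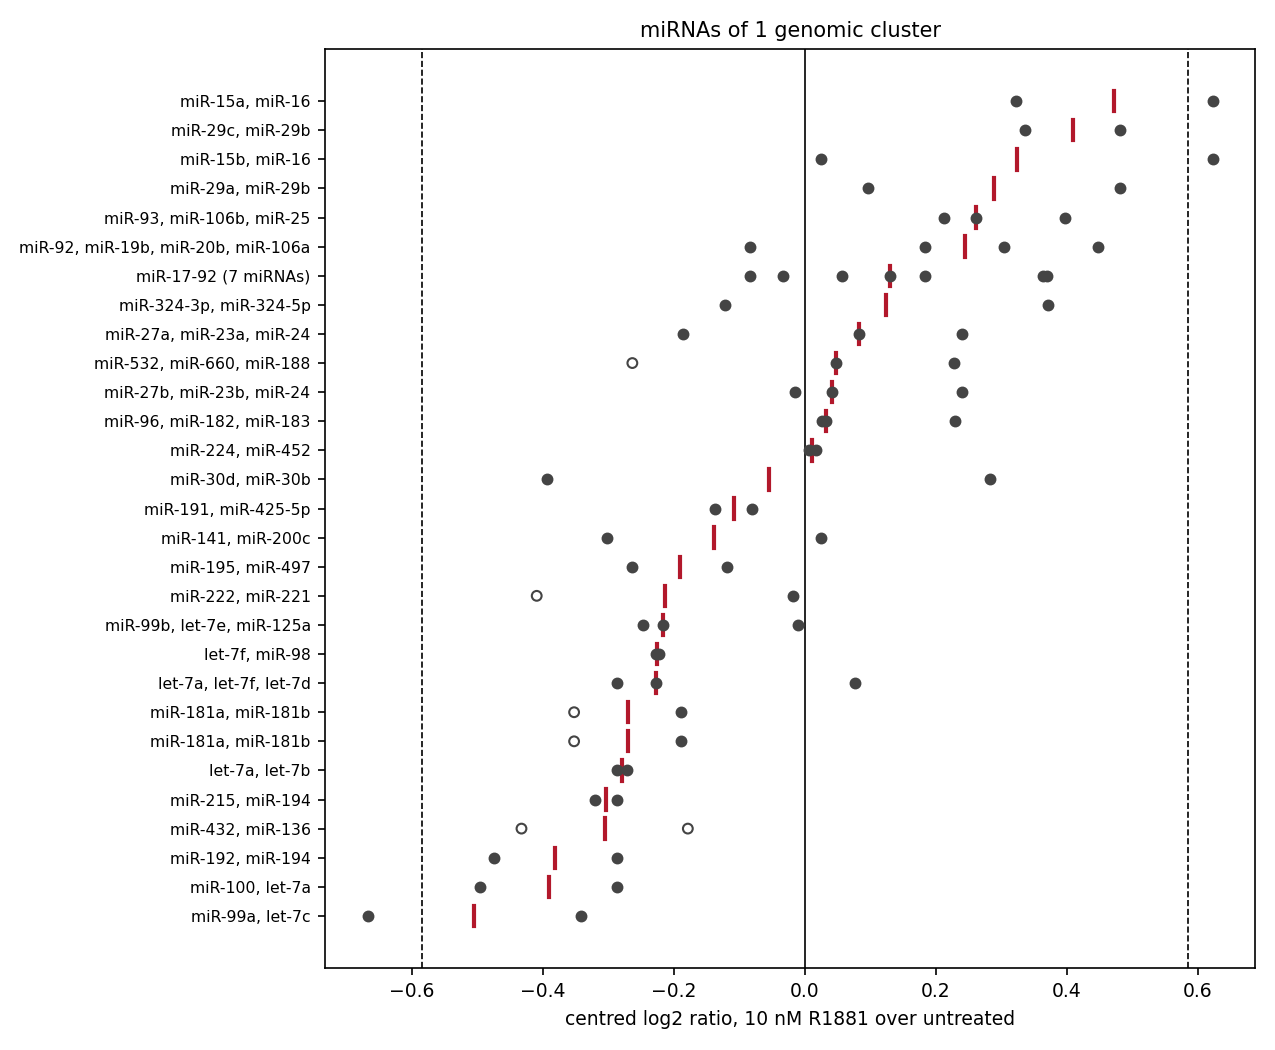
Centred log2 ratio, 10 nM over untreated, of the detected miRNAs in each of 29 genomic clusters (genes within 10 kb), points open where above the limit on 1 array only, with the cluster median as a red bar and 1.5-fold as dashed lines. A miRNA with several gene copies appears in each of its clusters, and miR-324-5p and miR-324-3p come from 1 gene. Cluster medians run between that of miR-99a with let-7c (-0.50) and that of miR-15a with miR-16 (0.47).

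A second probe on the same arrays gave a check of single ratios. The arrays carry 31 mouse or rat probes whose name is that of a detected human miRNA, and for 20 of them both probes were above the limit on both arrays. These 20 probes carry 18 names, since miR-20b and miR-346 each have a mouse and a rat probe. Left out were, among others, the mouse-named miR-192 and miR-215 probes, below the limit on both arrays although their human-named probes were above it. Some probes left out were far from the human-named one, being under the limit themselves. The rat-named miR-345 probe read 88.25 on both arrays (-0.32, human-named 0.38). The mouse-named miR-211 probe gave -0.17 (human-named 0.61) and that of miR-17-3p -0.37 (human-named 0.06). For 17 of the 20 probes the ratio lay on the same side of the median miRNA as that of the human-named probe, and their difference had an SD of 0.16 and a median size of 0.12. Across these 20 probes r was 0.84 and rho 0.81, over the same 2 arrays and RNA samples. The mouse-named miR-99a probe read 270 at 10 nM and 317.75 untreated (-0.55, against -0.67 for the human-named probe). That of miR-106a gave 0.36 (human-named 0.45) and that of miR-31 gave -0.45 (human-named -0.30). Among the 20, the probes were furthest apart for miR-485-3p, at 0.20 on the mouse-named probe and -0.21 on the human-named one. For let-7a they gave -0.02 and -0.29. This spread is between probes on 1 pair of arrays and holds nothing of the spread between cultures.

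**Figure D5:**
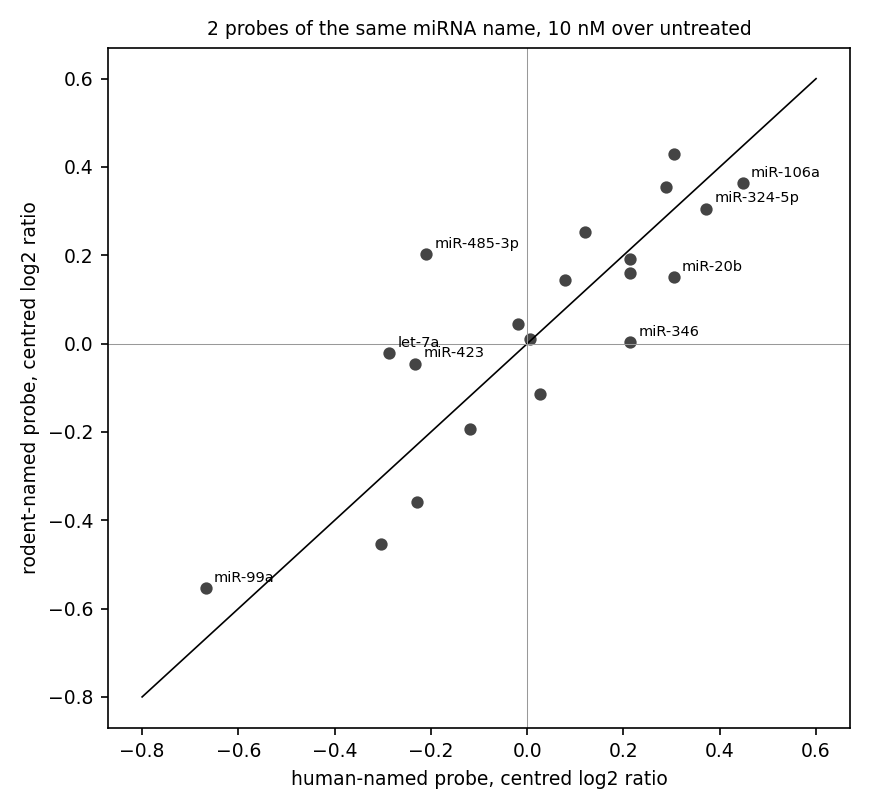
Centred log2 ratio, 10 nM over untreated, on the mouse- or rat-named probe (y axis) against that on the human-named probe (x axis) for 20 probes of 18 miRNA names, all seen on both arrays with both probes; the diagonal marks equal ratios. Of the 20 points 17 lie on the same side of 0 on both axes, and miR-485-3p is furthest from the diagonal (0.20 and -0.21).

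Probes expected to carry little specific signal had lower ratios than the detected miRNAs. Median centred ratios were -0.45 for the 2-mismatch probes, -0.43 for 107 virus and worm miRNA probes and -0.41 for the 319 human probes outside the comparison, beside 0 for the detected miRNAs. Most of these probes were under the limit, the 319 all by the filter, so intensity was not matched. The 17 virus and worm probes above the limit on either array had a median of -0.24, between -0.40 and 0.81. That of the dimmest 46 detected miRNAs was -0.18. For 8 of the 136 miRNAs the 2-mismatch probe was at least as bright as the matched one on at least 1 of the arrays, and on both for miR-568 and miR-647 (miR-197, miR-335, miR-346, miR-568, miR-615, miR-640, miR-647 and miR-92b). The ratio on matched and 2-mismatch probes had an r of 0.10 over 135 miRNAs.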

How the data were processed

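Total RNA from 4 LAPC-4 cultures, 1 per R1881 dose, was hybridized in 1 colour, and the 10 nM and untreated arrays were compared. The deposited intensity is a linear mean signal per probe name, per the file headers, for 1406 names an array. The scanner and any spot filter were not given in the sources used here. The labels speak of values relative to untreated cells, yet each array, untreated included, holds intensities. The authors' value table, set against those intensities, equals the intensity minus the median of the array's 2-mismatch probes, listed where the intensity was at least 2 times that median. That table lists 111 human miRNAs at 10 nM and 75 untreated.

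Members and lists were chosen with earlier results of these data known. The limit was the 95th percentile of the 2-mismatch probes, after leaving out 28 probes at 0 on an array. Log2 ratios of intensity were centred on the median of the 136 miRNAs (Python 3.11.15, pandas 2.3.3, numpy 2.4.6). A bound sets the detected value against the lowest human miRNA above the limit on the other array, or the miRNA's own value if higher. The text names the 10 highest and 10 lowest miRNAs seen on both arrays, those seen on 1 array with a bound of at least 0.32193 on the log2 scale, the 5 brightest, up to 3 per list, and miR-16, miR-21, miR-99a, miR-125b, miR-221 and miR-222. Further names, such as miR-211, miR-590 or miR-214, were chosen after their values were seen. Alternatives were no centring, other centres, normexp, quantile and cyclic loess normalization (R 4.3.3, limma 3.58.1), other limits and folds, and 2 added after the data were seen. The ratio, the centring and the count were tested on simulated data with 2-fold changes, larger than any centred ratio here. Changes near 1.5-fold were not simulated. The filter, the bounds and the normalizations were not tested. RefSeq matched a mature sequence for 121 and a gene for 135 of 136, all but miR-594. The number of arrays, 1 a group, limits the precision.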

Additional observations from a re-analysis of the deposited data

Results flagged for a closer look

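Signals stood above the 10 nM limit in probes outside the miRNA comparison. The probe of a Kaposi's sarcoma herpesvirus miRNA, miR-K12-3, read 462.75 at 10 nM and 212.25 untreated, a centred ratio of 0.81, close to that of miR-594. The glycine tRNA probe labelled as a positive control read 406.833 at 10 nM and 240 untreated (centred 0.44). The Bio B Spike probe, labelled negative, read 604.75 at 10 nM and 362.25 untreated (centred 0.42), with 473.25 at 0.1 nM and 525.5 at 1 nM. The Bio C Spike probe, also labelled negative, read 774.5 at 10 nM and 528.5 untreated (0.23). The tRNA and Bio B ratios were close to that of miR-106a (0.45). The Lambda Spike probes, labelled negative too, were all dimmer at 10 nM than untreated. The 2-mismatch probe of miR-191 read 761 at 10 nM and 193.5 untreated, while its matched probe read 4605.5 at 10 nM and 4061.75 untreated. No cause was tested for any of these.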

How the results depend on the processing

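Counts of miRNAs at least 1.5-fold from the median (4 higher, 4 lower) moved with the centre, the filter and the fold threshold. Of 136 miRNAs, 30 were higher with no centring, 42 with the centre on all probes and 2 with it on the brightest 25%. Also of 136, 24 were higher past a log2 ratio of 0.32193 and 0 at 2-fold. With no detection filter 37 were higher, but of 455 miRNAs. The lower count, of 136, was 0 with no centring and with the centre on all probes, and 11 with it on the brightest 25%. Past that ratio it was 19 and at 2-fold 0, also of 136. With no detection filter it was 0 of 455, and for miRNAs above the limit on both arrays 2 of 110. These settings moved the median miRNA by 0.32 (no centring), 0.40 (all probes) and -0.13 (brightest 25%). With the authors' background-subtracted values, chosen after seeing the data, 2 were higher and 6 lower of 74 listed on both arrays, and the cause was not tested. Normexp, quantile normalization, both together and cyclic loess gave 3 higher and 3 or 4 lower of 136. The 99th percentile as limit gave 3 higher and 3 lower of 90. Leaving out miRNAs whose 2-mismatch probe was at least as bright, added after seeing the data, gave 3 higher and 4 lower of 128. Over the main and 7 other scalings, 21 of the 53 named miRNAs stayed higher, 9 stayed lower and 23 were on both sides. The authors' subtracted values were counted too for 39 of the 53. The other 14 are not in the authors' table on both arrays. Counted alike, 42 of all 136 stayed higher, 13 stayed lower and 81 did neither. Many of the 53 were chosen for ratios far from 0 in these data, so their counts are no support for the choice. No paired analysis was possible because each group has 1 array, and for the same reason no replicate could be left out. The dimmest 46 miRNAs, with mean intensities between 115 and 168, lie close to the limits, and the 26 seen on 1 array only have bounds.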

Other observations

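In the authors' deposited table the lowest intensity listed is 152 at 10 nM and 169 untreated. Over the 74 miRNAs it lists on both arrays, the median log2 ratio of the subtracted values was 0.50, against 0.32 for the intensities of all 136. On that scale, centred, miR-125b was at -1.05, miR-99a at -0.89, miR-594 at 0.96, miR-193a at 0.56, miR-16 at 0.48 and miR-21 at 0.45. The U6 probe, a small nuclear RNA, read 75.5 at 10 nM and 87.5 untreated, under the limit on both arrays.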
